A study of Homo sapiens with 6 samples.

Results

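The genes described here are the expressed long intergenic RNAs of U937 cells, a human myeloid leukaemia line grown in suspension with monocyte-like features. Members were taken from the deposited gene table as genes of the class lincRNA, of at least 200 bases, with a mean of at least 2 FPKM over the 6 libraries. FPKM is the number of sequenced fragments scaled to the gene's length in kilobases and to the depth of the library. Genes named SNHG, which host small nucleolar RNAs, and GAS5, DANCR, H19 and MEG3 were left out. Names were those of the deposited table, so LINC02001, which RefSeq lists as SNHG30, stayed in. The rule gave 254 members of 58735 listed genes, among 7629 listed lincRNA genes. They were chosen by the mean FPKM over all 6 libraries, so their level is a description, and the difference between the groups was not used.

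BCL6B is a DNA-binding protein of the BCL6 family of repressors, and the study tested its role in acute myeloid leukaemia lines. The tested libraries are 3 of U937 cells labelled as overexpressing BCL6B (OE), and they are set against 3 of U937 cells labelled NC, the controls. The labels class the line as acute promyelocytic leukaemia cells, and the design text names lentiviral vectors for overexpression. The labels do not state what the controls carry, how long the cells were grown or whether a clone was picked. All libraries have the same batch label, and no label ties replicates to separate cultures. The p-values therefore reflect the spread among these 6 libraries alone, and that spread may be technical.

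Long intergenic RNAs are transcribed by RNA polymerase II between protein-coding genes, and most are spliced, capped and given a poly(A) tail like messenger RNA. Some stay in the nucleus, where they build or line nuclear bodies, some act in the cytoplasm by binding proteins or microRNAs, and some are precursors of microRNAs. Many start beside the promoter of a coding gene and run away from it, and most short-lived ones are degraded by the nuclear exosome. In myeloid cells such RNAs are known as products of NF-kB and interferon signalling and as hosts of the microRNAs that restrain inflammation.

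BCL6B had no read in any NC library and 1215 to 1712 reads in each OE library, where its level was 16.7 ± 2.52 FPKM (SD, n = 3). The libraries held 17095256 to 18870186 reads in listed genes with OE and 16481014 to 17627289 with NC. The share of all reads that fell in members was 0.482% to 0.490% with OE and 0.477% to 0.494% with NC, so the groups overlapped. Mitochondrial reads were 4.49% to 4.97% with OE and 4.17% to 4.44% with NC, and 4 of the 13 mitochondrially encoded messenger RNAs rose and none fell, where 9.2% of tested genes with at least 2 FPKM rose. Of the 10 tested myeloid markers MPO, CTSG, LYZ and CD33 fell and none rose, where 13.3% of tested genes with at least 2 FPKM fell. SPI1, CSF3R, CEBPA and CSF1R did not pass the test, at 1.13, 1.248, 1.22 and 1.33 times the NC mean with every OE library above every NC library, and the median log2 change of the list was 0.01. The 11 markers summed to 1748 to 1934 FPKM with OE and 2166 to 2327 FPKM with NC, of which MPO made up most, with 1668 ± 93.3 FPKM in OE and 2025 ± 83.2 FPKM in NC (SD, n = 3 each), and CD68 was under 0.5 FPKM. Of the 9 T cell markers 3 could be tested, and TRAC rose, at 62.5 ± 2.85 FPKM in OE and 35.1 ± 2.21 FPKM in NC (SD, n = 3 each), while CD8B was at 0 in every library. The summed level of that list was 99.5 to 102.7 FPKM with OE and 69.7 to 74.0 FPKM with NC, and TRAC made up most of that difference. CD4 averaged 33.3 FPKM in OE and 32.9 FPKM in NC. Neither CD4 nor CD3D passed the test (limma adjusted p = 0.869 and 0.134). The 6 B cell markers summed to 7.06 to 7.90 FPKM with OE and 6.82 to 7.76 FPKM with NC, with PAX5 at 0. The part of the mitochondrial and marker shifts in the results on lincRNAs was not tested. In bulk RNA, fewer cells that express a gene and less of its RNA per cell cannot be told apart.

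Several sequences are shown first because the results return to them. The opening set holds promoters of changed members, from 250 bases before to 50 bases after the RefSeq start (GRCh38.p14), each read 5′ to 3′ along the strand of the lincRNA. ZNF674-AS1 (chrX:46545240-46545539, plus strand) and AC144652.1 (chr7:155297609-155297908, minus strand) start head to head with a coding gene and fell. LINC02169 (chr16:54270830-54271129, minus strand) fell, as did its nearest coding gene, and LINC00908 (chr18:76528405-76528704, plus strand) rose and is reported to encode a small peptide. Capitals mark the motifs searched and found on either strand, which were the CCAAT box, the TATAAA box, the E-box with the letters CACGTG, a hypoxia response core with the letters ACGTG, the AP-1 motif with the letters TGANTCA and the NF-kB motif. RefSeq lists AC144652.1 as INSIG1-DT, with a start 117 bases from that in the deposited table.
ZNF674-AS1: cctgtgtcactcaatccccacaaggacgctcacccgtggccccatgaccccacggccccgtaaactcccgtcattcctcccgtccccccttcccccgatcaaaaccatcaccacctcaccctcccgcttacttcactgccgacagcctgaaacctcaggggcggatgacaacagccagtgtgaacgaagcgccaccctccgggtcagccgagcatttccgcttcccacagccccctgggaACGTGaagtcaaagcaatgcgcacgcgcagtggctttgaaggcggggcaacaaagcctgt
AC144652.1: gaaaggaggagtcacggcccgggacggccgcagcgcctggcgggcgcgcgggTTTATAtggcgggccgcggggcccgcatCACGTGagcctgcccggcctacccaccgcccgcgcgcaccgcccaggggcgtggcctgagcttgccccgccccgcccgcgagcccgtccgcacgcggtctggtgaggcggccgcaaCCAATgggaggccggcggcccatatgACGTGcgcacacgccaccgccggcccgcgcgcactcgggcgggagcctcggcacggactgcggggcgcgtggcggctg
LINC02169: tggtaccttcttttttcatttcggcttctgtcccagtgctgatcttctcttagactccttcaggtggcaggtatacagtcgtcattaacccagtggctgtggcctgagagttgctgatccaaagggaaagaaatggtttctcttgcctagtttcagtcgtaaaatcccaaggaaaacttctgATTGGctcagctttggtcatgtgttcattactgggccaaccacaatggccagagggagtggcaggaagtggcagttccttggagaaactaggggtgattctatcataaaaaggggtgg
LINC00908: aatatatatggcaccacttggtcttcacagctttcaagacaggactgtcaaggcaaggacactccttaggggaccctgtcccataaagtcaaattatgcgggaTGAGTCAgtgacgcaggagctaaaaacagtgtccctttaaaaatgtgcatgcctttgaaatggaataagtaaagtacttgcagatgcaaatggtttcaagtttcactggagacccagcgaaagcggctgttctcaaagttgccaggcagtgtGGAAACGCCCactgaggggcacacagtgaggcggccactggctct
The AC144652.1 window had 3 matches to ACGTG, of which the matches on both strands of CACGTG overlap. Its guanine and cytosine content was 78.7%, against 47.3% in the LINC02169 window.

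A stretch of NORAD is shown because NORAD, the second most abundant member, is known for many sites that bind PUMILIO proteins, which repress messenger RNAs. These are bases 1120 to 1269 of the transcript (GENCODE 29, chromosome 20, minus strand), with the PUMILIO motif TGTANATA in capitals.
NORAD transcript: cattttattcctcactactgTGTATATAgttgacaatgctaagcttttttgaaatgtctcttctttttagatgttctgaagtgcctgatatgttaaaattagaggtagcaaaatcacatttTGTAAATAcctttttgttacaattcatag
On its own strand the NORAD transcript had 15 matches in 5339 bases, or 2.81 per kilobase. NEAT1 had 6 matches in a transcript of 22743 bases, or 0.264 per kilobase. In 226 of the 254 members the longest transcript had no match.

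The 8 most abundant members included LINC00926, NORAD, AL390728.6, C20orf197, AC084033.3, LINC00623 and AC092747.4. LINC00926, an RNA best known from B cells, was the most abundant and fell with BCL6B. It was at 118.5, 120.1 and 127.0 FPKM in the OE libraries, against 152.9, 152.6 and 155.9 FPKM in the NC libraries. The groups did not overlap, and the OE mean was 0.792 of the NC mean (log2 change -0.33, SE 0.0445, limma adjusted p = 0.00515). LINC00926 lies on chromosome 15, 57300365 to 57307769, plus strand (GRCh38). Its share of the summed member FPKM was 6.80% with OE and 8.33% with NC. Its call held under every alternative run. Without it the summed level of the members was 1651 to 1684 FPKM with OE and 1687 to 1699 FPKM with NC.

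AL390728.6, a single-exon RNA on chromosome 1 (247187281 to 247188526, minus strand), was at 55.3, 44.4 and 46.7 FPKM in the OE libraries and at 36.9, 27.7 and 32.0 FPKM in the NC libraries. It rose 1.51-fold (log2 change 0.59, limma adjusted p = 0.0189). The call was lost without NC replicate 3 (adjusted p = 0.0610) and without the filter on low values (0.0619). AC084033.3 rose 1.36-fold, with 36.5 ± 4.45 FPKM in OE and 26.9 ± 2.08 FPKM in NC (SD, n = 3 each; limma adjusted p = 0.0270). That call was lost without OE replicate 1, OE replicate 2, NC replicate 1 or NC replicate 3, with an adjusted p of up to 0.0898. It was also lost without the filter.

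NORAD, C20orf197, LINC00623 and AC092747.4 did not pass the test. NORAD had 54.0, 57.4 and 48.6 FPKM in the OE libraries and 61.4, 55.2 and 59.8 FPKM in the NC libraries, and the groups overlapped (limma adjusted p = 0.219). C20orf197 averaged 37.4 ± 2.70 FPKM in OE and 33.0 ± 3.28 FPKM in NC. LINC00623 averaged 30.0 ± 1.20 FPKM in OE and 31.0 ± 2.66 FPKM in NC, and AC092747.4 averaged 29.7 ± 2.44 FPKM in OE and 29.1 ± 0.340 FPKM in NC (SD, n = 3 each).

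**Figure D1:**
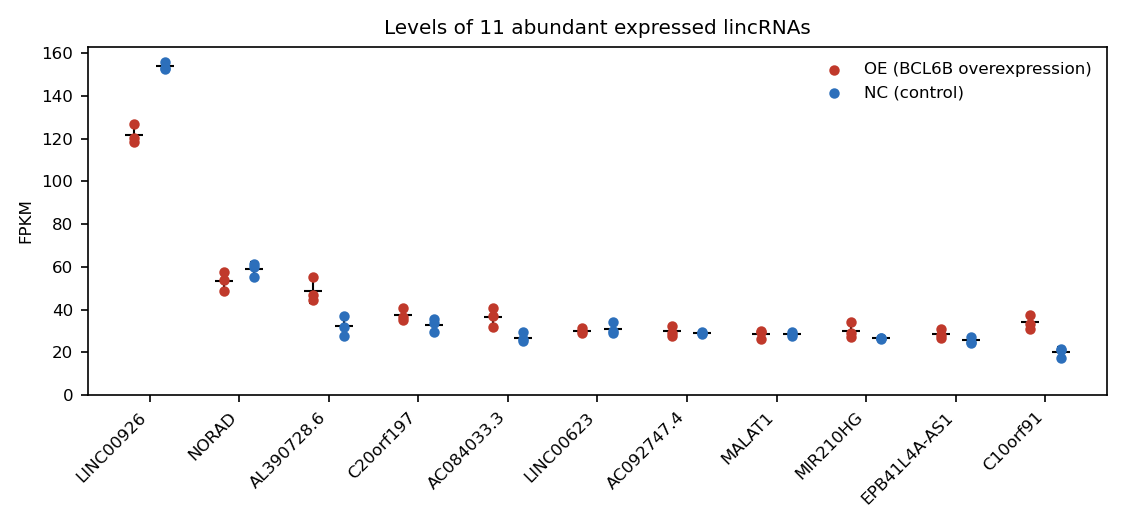
FPKM of 11 of the most abundant members in each library, with OE to the left of NC for each gene; points are libraries, and black marks give the mean and SD (n = 3). LINC00926 stood at 118.5 to 127.0 FPKM in OE and 152.6 to 155.9 FPKM in NC, and the others were below 62 FPKM in every library.

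The nuclear RNAs MALAT1 and NEAT1 are neighbours on chromosome 11 and are retained at nuclear speckles and paraspeckles. MALAT1 and the long form of NEAT1 end in a triple helix in place of a usual poly(A) tail, so selection with oligo(dT), which these libraries used, takes them up only in part. MALAT1 had 29.3, 30.1 and 26.4 FPKM in the OE libraries and 27.4, 29.3 and 28.4 FPKM in the NC libraries, which overlap (log2 change 0.01, limma adjusted p = 0.935). NEAT1 had 29.2, 30.8 and 26.9 FPKM in the OE libraries, against 23.1, 23.9 and 23.0 FPKM in the NC libraries. All OE values of NEAT1 were higher, by 1.24-fold in the mean (log2 change 0.30, SE 0.0570, limma adjusted p = 0.0157). Without OE replicate 2, NC replicate 1 or NC replicate 3 that call was lost, with an adjusted p of up to 0.0617. TUG1, a chromatin-associated RNA that the table puts in another class, fell to 19.2 ± 0.943 FPKM in OE, against 22.4 ± 0.545 FPKM in NC (SD, n = 3 each; limma adjusted p = 0.0305). Of the 5 tested genes in the list of nuclear body and chromatin RNAs, NEAT1 rose and TUG1 fell.

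NEAT1 is the scaffold of paraspeckles, and 5 of the 16 listed paraspeckle proteins changed, where 23.2% of coding genes with at least 2 FPKM did. RBM14, a prion-like protein that paraspeckles need in order to form, averaged 18.3 ± 1.14 FPKM in OE and 31.7 ± 2.41 FPKM in NC (log2 change -0.76, limma adjusted p = 0.00180). SFPQ, a core paraspeckle protein that binds NEAT1, averaged 68.8 ± 2.60 FPKM in OE and 82.4 ± 0.940 FPKM in NC (limma adjusted p = 0.0106). PSPC1, its partner, also fell, with 19.6 FPKM in OE and 22.1 FPKM in NC. RBMX and TAF15, RNA-binding proteins of the same bodies, rose 1.17-fold and 1.21-fold. The list had 2 rises and 3 falls.

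Among RNAs known from the cytoplasm or as sponges, none of 5 tested genes passed the test at the limma adjusted threshold of 0.05. Its members were NORAD, EPB41L4A-AS1 and CRNDE. EPB41L4A-AS1, a spliced RNA that p53 and PGC-1 alpha are reported to raise, averaged 28.6 ± 2.00 FPKM in OE and 25.5 ± 1.36 FPKM in NC (limma adjusted p = 0.144). CRNDE, an RNA raised in colorectal tumours and in leukaemia, averaged 8.25 ± 0.637 FPKM in OE and 8.38 ± 0.271 FPKM in NC (limma adjusted p = 0.850).

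The called counts of the lincRNA lists stand beside 18.3% of all tested genes and 22.5% of those with at least 2 FPKM. Lists of 4 to 10 tested genes are too small to tell their called shares from these. Of 10 tested genes on the list of immune and NF-kB lincRNAs, 2 rose and 1 fell, and LINC00926 was the member among them. MIR155HG, the host of miR-155, averaged 12.4 ± 0.941 FPKM in OE and 11.6 ± 2.17 FPKM in NC (SD, n = 3 each; limma adjusted p = 0.643). MIR222HG, the host of miR-221 and miR-222, was at 10.6, 9.21 and 8.91 FPKM in the OE libraries and at 8.09, 7.59 and 8.24 FPKM in the NC libraries. Every OE library was higher in MIR222HG, but it missed the threshold (limma adjusted p = 0.0676). MIR3142HG, the host of miR-146a, which damps NF-kB signalling, averaged 4.83 ± 0.529 FPKM in OE and 5.84 ± 0.400 FPKM in NC (limma adjusted p = 0.0985). BISPR, an interferon-induced RNA beside BST2, averaged 3.42 FPKM in OE and 3.03 FPKM in NC (limma adjusted p = 0.205). LINC01215 and LINC00528 also did not pass, with limma adjusted p of 0.340 and 0.153. The rises were those of LUCAT1 and CCDC18-AS1, which the table puts in other classes. LUCAT1, an RNA reported to restrain the interferon response of macrophages, averaged 0.954 ± 0.102 FPKM in OE and 0.223 ± 0.0557 FPKM in NC (SD, n = 3 each; limma adjusted p = 0.00810).

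On the list of RNAs tied to blood formation and leukaemia, 1 of 7 tested genes fell and none rose. The fall was that of HOTAIRM1, an RNA of the HOXA cluster induced in myeloid maturation, with 8.38 ± 0.479 FPKM in OE and 10.9 ± 1.33 FPKM in NC (SD, n = 3 each; limma adjusted p = 0.0454). HOTAIRM1 is classed as antisense and is no member. PVT1, the RNA gene beside MYC, averaged 4.67 ± 0.168 FPKM in OE and 4.60 ± 0.121 FPKM in NC (limma adjusted p = 0.858). LINC00265 averaged 3.75 FPKM in OE and 4.46 FPKM in NC (limma adjusted p = 0.120). BLACE, named for its expression in B cell acute lymphoblastic leukaemia, averaged 1.69 FPKM in OE and 2.34 FPKM in NC (limma adjusted p = 0.0685). On the list of p53 and DNA damage RNAs, NEAT1 was the call among 4 tested genes. Outside the rule for named genes, and chosen after its values were seen, MIR210HG, the host of the hypoxia-induced miR-210, averaged 30.1 ± 3.60 FPKM in OE and 26.5 ± 0.409 FPKM in NC (limma adjusted p = 0.194).

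LINC00908 is reported to encode ASRPS, a small peptide that binds STAT3. It was at 3.39, 3.32 and 3.71 FPKM in the OE libraries, against 1.74, 2.21 and 2.18 FPKM in the NC libraries. All OE libraries were higher, and the rise was 1.70-fold (log2 change 0.56, SE 0.0868, limma adjusted p = 0.00822). The values rest on 180 to 226 reads per OE library and 97 to 122 per NC library. It was the call among 8 tested genes of a list of lincRNA genes later reported to encode small proteins, of which the table classes 4 as protein-coding. Its call held under every alternative run.

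Over all members, 55 of 254 passed the test at a limma adjusted p under 0.05, or 21.7%, against 18.3% of the 14662 genes tested. The level matters for this comparison, and 22.5% of the tested genes with a mean of at least 2 FPKM were called. Higher levels in OE were called for 21 members, or 8.27%, against 8.18% of all tested genes and 9.2% of those with at least 2 FPKM. Lower levels were called for 34 members, or 13.4%, against 10.1% of all tested genes and 13.3% of those with at least 2 FPKM. The members' shares therefore lay near the background in both directions. The median log2 change was -0.05 over members, -0.02 over all tested genes and -0.03 over those with at least 2 FPKM. In 49 members (19.3%) every OE library lay above every NC library, against 18.6% of genes with at least 2 FPKM. In 68 members (26.8%) every OE library lay below, against 26.3%. In the other 137 the groups overlapped. Called shares were lower among tested lincRNA genes below 2 FPKM, at 9.3% either way, 5.44% higher in OE and 3.85% lower in OE.

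All 254 members passed the filter for testing, which asked for 0.5 FPKM in at least 3 libraries. The member counts moved with single libraries, down to 13 rises without NC replicate 3, and to 20 falls without NC replicate 1 and 22 without OE replicate 2 or NC replicate 3. Just inside the limit of 2 FPKM lay AL512329.2, AC010980.2 and AC006012.1, with means of 2.00, 2.01 and 2.01 FPKM. Just outside lay AC126544.2, AC034229.4 and LINC01388, with 1.996, 1.99 and 1.97 FPKM.

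**Figure D2:**
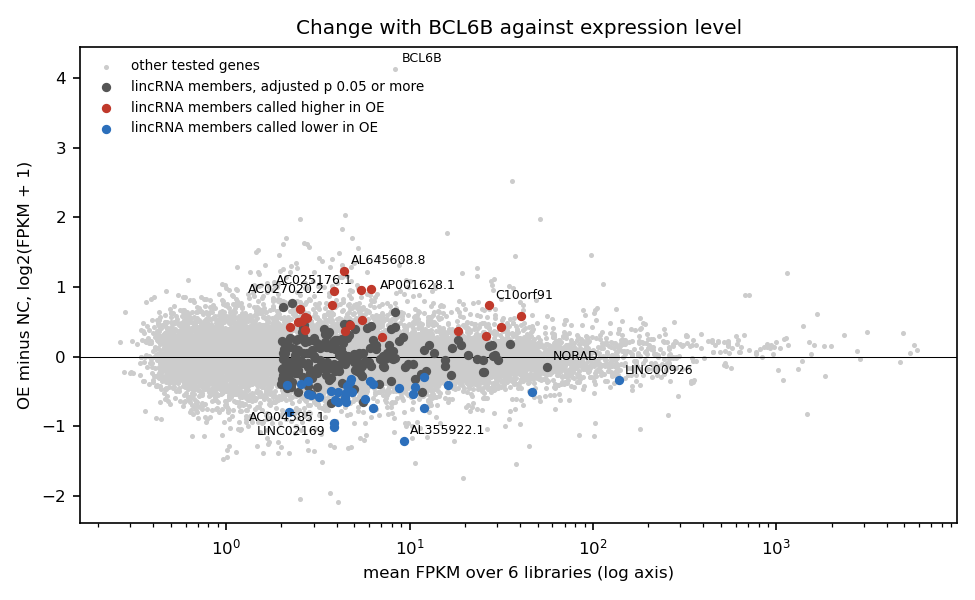
Difference of OE minus NC on the log2(FPKM + 1) scale (vertical axis) against mean FPKM over the 6 libraries (horizontal log axis) for all tested genes, with members in dark grey, red (called higher in OE) and blue (called lower in OE). Members begin at 2 FPKM by their rule and lie within -1.21 to 1.24, inside the cloud of other genes, while BCL6B lies at 4.13.

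Called shares were compared within classes of level. Of 162 members between 2 and 5 FPKM, 20.4% were called, against 17.2% of 3195 genes of that level. Between 5 and 20 FPKM the shares were 21.6% of 74 members and 23.3% of 4670 genes. At 20 FPKM or more they were 33.3% of 18 members and 28.3% of 2305 genes. Members are short, with a median exonic length of 1246 bases against 4447 bases for genes of at least 2 FPKM. They had fewer reads at each level, with a median per library of 73.75 against 275 between 2 and 5 FPKM, 158.2 against 858.6 between 5 and 20 FPKM, and 1191 against 2540 at 20 FPKM or more. Their spread between replicates was larger, with a median coefficient of variation of 11.4% in OE and 10.6% in NC, against 7.25% in OE and 5.69% in NC for genes of at least 2 FPKM. An average of under 50 reads lay behind 64 of the members.

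**Figure D3:**
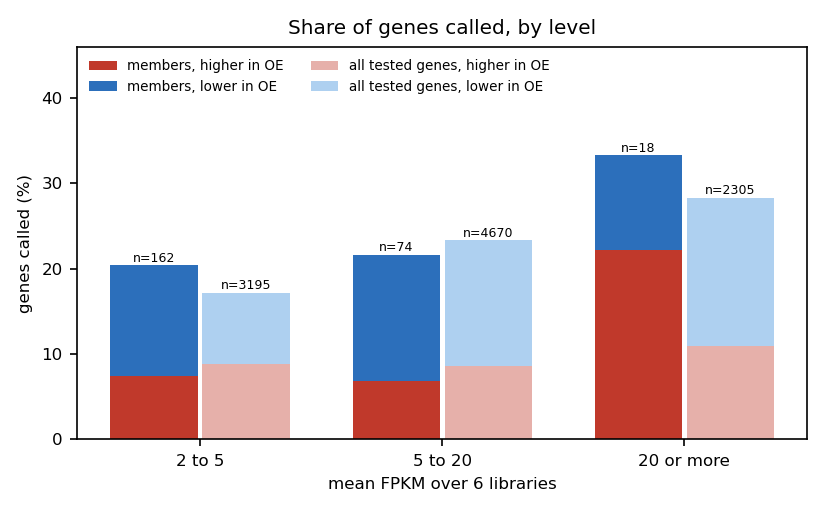
Share of genes called at a limma adjusted p under 0.05 (vertical axis, percent) by mean FPKM (horizontal axis), for members (dark bars, left of each pair) and all tested genes (pale bars), split into higher in OE (red) and lower in OE (blue). Members reach 20.4%, 21.6% and 33.3% over the classes, and all tested genes 17.2%, 23.3% and 28.3%.

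The largest rise among members was that of AL645608.8, a spliced RNA on chromosome 1 (1062208 to 1063288, minus strand). It had 6.47, 6.55 and 6.68 FPKM in the OE libraries, against 1.64, 2.52 and 2.57 FPKM in the NC libraries. The OE values were close together and all higher, by 2.93-fold (log2 change 1.24, SE 0.120, limma adjusted p = 0.00203). These levels rest on 97 to 111 reads per OE library and 25 to 38 per NC library. AL645608.8 lies tail to tail with AGRN, 6090 bases away, which encodes the proteoglycan agrin and also rose, with 7.48 ± 1.04 FPKM in OE and 4.34 ± 0.104 FPKM in NC (SD, n = 3 each).

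AP001628.1, on chromosome 21 (42831040 to 42836477, minus strand), had 8.20, 7.46 and 9.81 FPKM in the OE libraries, against 3.44, 3.85 and 4.25 FPKM in the NC libraries. It rose 2.21-fold (log2 change 0.97, SE 0.106, limma adjusted p = 0.00313). AC027020.2, a single-exon RNA on chromosome 15, had 6.004, 4.69 and 5.47 FPKM in the OE libraries, against 2.62, 1.95 and 2.41 FPKM in the NC libraries. It rose 2.31-fold (log2 change 0.94, limma adjusted p = 0.00353), with no overlap between groups. AC025176.1 rose 2.25-fold (limma adjusted p = 0.0157), but its OE libraries differed widely, at 9.75, 5.67 and 7.11 FPKM, against 3.73, 3.61 and 2.68 FPKM in the NC libraries. Without NC replicate 3 its adjusted p was 0.0529, and without the filter it was 0.0544.

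C10orf91 was the best measured of the large rises, with 1133 to 1535 reads per OE library and 645 to 811 per NC library. Its levels were 33.4, 31.1 and 37.5 FPKM in the OE libraries, against 21.6, 17.4 and 21.1 FPKM in the NC libraries. All OE values were higher, by 1.70-fold (log2 change 0.74, SE 0.101, limma adjusted p = 0.00550). It lies on chromosome 10 (132444327 to 132449408, plus strand), downstream of PWWP2B, which also rose.

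The rest of the 15 largest rises ran from 1.47-fold to 1.96-fold, and in each of them every OE library was above every NC library. AC116565.1, AC102953.2, BAIAP2-DT and AL645933.2 rose 1.92-fold, 1.74-fold, 1.54-fold and 1.47-fold, and their calls held under every alternative run. BAIAP2-DT, which starts 241 bases from the start of BAIAP2 on the other strand, had 6.66, 6.44 and 6.79 FPKM in the OE libraries and 4.68, 3.96 and 4.29 FPKM in the NC libraries. BAIAP2 itself was below the filter, at 0.159 FPKM in OE and 0.0431 FPKM in NC. AC063943.1 rose 1.64-fold, a call that held without any 1 library but not with voom on recovered reads (adjusted p = 0.190). LINC01786, CDC37L1-DT and LINC02043 rose 1.96-fold, 1.66-fold and 1.54-fold on low levels of 2.72 to 3.34 FPKM in OE and 1.71 to 1.94 FPKM in NC. The call of LINC01786 was lost without OE replicate 2, OE replicate 3, NC replicate 1 or NC replicate 2 (adjusted p up to 0.0568). That call was also lost without the filter (0.0593). That of CDC37L1-DT was lost without OE replicate 2 or any NC library (up to 0.0931), and that of LINC02043 without any library but OE replicate 3 (up to 0.0932). Without the filter and with the replicate block both calls were also lost (up to 0.0984 for LINC02043). That of CDC37L1-DT was lost with voom as well (up to 0.0957 over these settings).

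AL355922.1 had the largest fall, on chromosome 14 (20919361 to 20920299, plus strand). It was at 5.67, 5.65 and 4.44 FPKM in the OE libraries, against 13.6, 13.5 and 13.0 FPKM in the NC libraries. The groups stood well apart, and the OE mean was 0.393 of the NC mean (log2 change -1.21, SE 0.0872, limma adjusted p = 0.000720). The gene is short, so 30 to 36 reads per OE library and 76 to 84 per NC library lie behind these levels. Its nearest coding gene, 27013 bases away, is RNASE3, which encodes an eosinophil granule ribonuclease and did not pass the test, with 14.0 ± 1.34 FPKM in OE and 13.3 ± 1.05 FPKM in NC (SD, n = 3 each; limma adjusted p = 0.633).

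LINC02169, whose promoter is shown above, was at 2.05, 2.49 and 2.10 FPKM in the OE libraries, against 4.20, 5.59 and 6.82 FPKM in the NC libraries. It fell to 0.400 of the NC mean (log2 change -1.01, SE 0.148, limma adjusted p = 0.00702), and the NC values were widely spread. The homeobox gene IRX3, 12425 bases away, is its nearest coding gene and also fell, with 11.8 ± 0.544 FPKM in OE and 16.9 ± 0.963 FPKM in NC (SD, n = 3 each; limma adjusted p = 0.00403). AC004585.1, on chromosome 17 (40517026 to 40527002, plus strand), was at 2.39, 2.66 and 1.92 FPKM in the OE libraries, against 5.77, 5.00 and 5.44 FPKM in the NC libraries. It fell to 0.431 of the NC mean (log2 change -0.95, limma adjusted p = 0.00256).

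Of the other 12 largest falls, AL139089.1, AL117379.1, GS1-24F4.2, AC022306.2, AC144652.1 and AC092119.2 held their calls under every alternative run, at 0.548, 0.576, 0.573, 0.609, 0.666 and 0.604 of the NC mean. AL117379.1, which lies within DIDO1 on the same strand, was the most abundant of these, with 8.08, 10.3 and 7.81 FPKM in the OE libraries and 14.7, 16.7 and 14.1 FPKM in the NC libraries. DIDO1 itself averaged 10.4 FPKM in OE and 10.8 FPKM in NC (limma adjusted p = 0.546). AC063948.1 held without any 1 library but not with voom on recovered reads (adjusted p = 0.0609). AC132807.2 passed narrowly (limma adjusted p = 0.0488) on 6 to 10 reads per OE library and 13 to 27 per NC library. Its call was lost without any library but NC replicate 1 (up to 0.134). It was also lost without the filter, with median ratio scaling, with no trend and with voom (up to 0.141). AC103706.1 lost its call without any 1 library (up to 0.0853), LINC00115 without OE replicate 1 or any NC library (up to 0.0610), AL590705.3 without any library but NC replicate 2 (up to 0.109) and AC096631.1 without any library but OE replicate 1 (up to 0.0734). Without the filter the calls of AC103706.1 (adjusted p 0.105), LINC00115, AL590705.3 and AC096631.1 were also lost, and with voom that of AL590705.3. LINC00115 and AL590705.3 each have a near-identical copy elsewhere, so their reads may be shared.

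**Figure D4:**
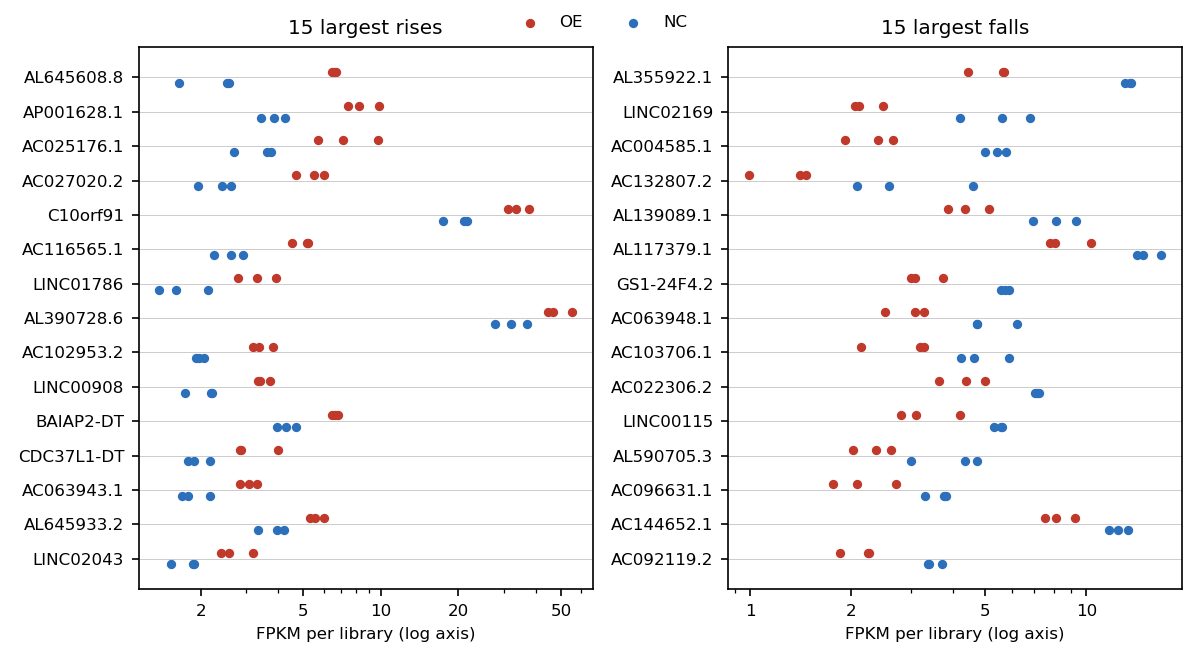
FPKM in each library (horizontal log axis) for the 15 members with the largest rise (left panel) and the 15 with the largest fall (right panel), with OE above NC in each row. In every row the 3 OE points lie on one side of the 3 NC points; AL645608.8 has 6.47 to 6.68 FPKM in OE against 1.64 to 2.57 FPKM in NC.

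Past these 30 named changes, 6 further members rose and 19 fell. The further rises were 1.24-fold to 1.44-fold, and among them LINC00342, with 20.4, 20.9 and 21.3 FPKM in the OE libraries and 14.9, 15.9 and 16.9 FPKM in the NC libraries, held under every alternative run. LINC00342 has 2 near-identical copies. The further falls were to 0.637 to 0.804 of the NC mean. ZNF674-AS1, AC207130.1 and LINC00926 were among those that held under every alternative run. Features that the rule did not use are given for the members called in each direction as a description. Whether these sets differ was not tested. Single-exon genes made up 6 of the 21 members that rose, 18 of the 34 that fell and 86 of the 199 that were not called. Over all 254 members they were 110. Median guanine and cytosine content was 49.4% in those that rose, 44.4% in those that fell and 46.8% in those not called. Median exonic length was 1832 bases, 1226 bases and 1192 bases in the same order.

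Coding genes lie close to these RNAs. In 48 members the gene bounds overlapped a coding gene, 105 lay within 1000 bases of one and 238 within 100000 bases. The most frequent arrangement was head to head, in 80 members, and 70 lay downstream of the coding gene on its strand. A tested coding neighbour was found for 192 members, and 22.9% of these neighbours were called. Beside this stand 18.3% of all tested genes and 23.2% of coding genes with at least 2 FPKM. Of the latter, 9.23% were higher and 13.9% lower in OE. The neighbours had to pass only the filter of 0.5 FPKM, so neither share is for genes of the same levels. A coding gene nearest to more than 1 member was counted once for each of them. Of the 46 called members with a tested neighbour, 12 had a neighbour called in the same direction, 4 had one called in the other and 30 had one that was not called. Across the 192 pairs the log2 changes had a Pearson r of 0.209 and a Spearman rho of 0.165. These are a description, since the pairs share the same 6 libraries and some share a coding gene.

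In 45 members the start lay head to head with a coding start within 1000 bases, an arrangement in which both RNAs leave one promoter region. Over the 41 pairs with a tested partner r was 0.354 and rho 0.268. Of the 10 called members among them, 3 had a partner called in the same direction. AC116565.1 and TMEM271, with starts 868 bases apart, both rose, and TMEM271 had 2.47 ± 0.273 FPKM in OE and 1.11 ± 0.219 FPKM in NC (SD, n = 3 each). AC092119.2 fell beside UQCRC2, a subunit of respiratory complex III, which had 31.9 FPKM in OE and 35.5 FPKM in NC. AC015912.3 fell beside TRIM25, a ubiquitin ligase of antiviral sensing, which had 7.18 FPKM in OE and 9.999 FPKM in NC. The call of AC015912.3 was lost without any 1 library, with a limma adjusted p of up to 0.103. It was also lost without the filter, with the replicate block and with voom on recovered reads (adjusted p up to 0.365).

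The pair of AC144652.1 and INSIG1 moved apart, with starts 235 bases from each other. AC144652.1 was at 7.56, 8.10 and 9.28 FPKM in the OE libraries, against 12.4, 13.3 and 11.7 FPKM in the NC libraries. All OE values were lower (log2 change -0.54, SE 0.0825, limma adjusted p = 0.00810). INSIG1, which holds back sterol synthesis by retaining the SREBP escort protein in the endoplasmic reticulum, rose to 120.4 ± 4.63 FPKM in OE, against 104.8 ± 4.14 FPKM in NC (SD, n = 3 each; limma adjusted p = 0.0386). CDC37L1-DT and CDC37L1, a co-chaperone of HSP90, also moved apart, with CDC37L1 at 7.49 FPKM in OE and 8.83 FPKM in NC. However, the call of CDC37L1-DT was lost without OE replicate 2 or any NC library (up to 0.0931). It was also lost without the filter, with the replicate block and with voom (up to 0.0957).

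The other 5 called members had partners that were not called. ZNF674-AS1 was at 2.97, 2.67 and 3.15 FPKM in the OE libraries and at 4.32, 4.89 and 4.38 FPKM in the NC libraries (limma adjusted p = 0.00787). ZNF674, which starts 36 bases away, averaged 0.783 FPKM in OE and 0.879 FPKM in NC (limma adjusted p = 0.661). SUGT1, beside AL139089.1, had an adjusted p of 0.105, and PRKACB, beside AL359504.2, one of 0.722, while the call of AL359504.2 was lost without NC replicate 1 (0.0519). ZNF41, beside LINC01560, had one of 0.303. Whether a lincRNA changed more or less than its partner was not tested.

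**Figure D5:**
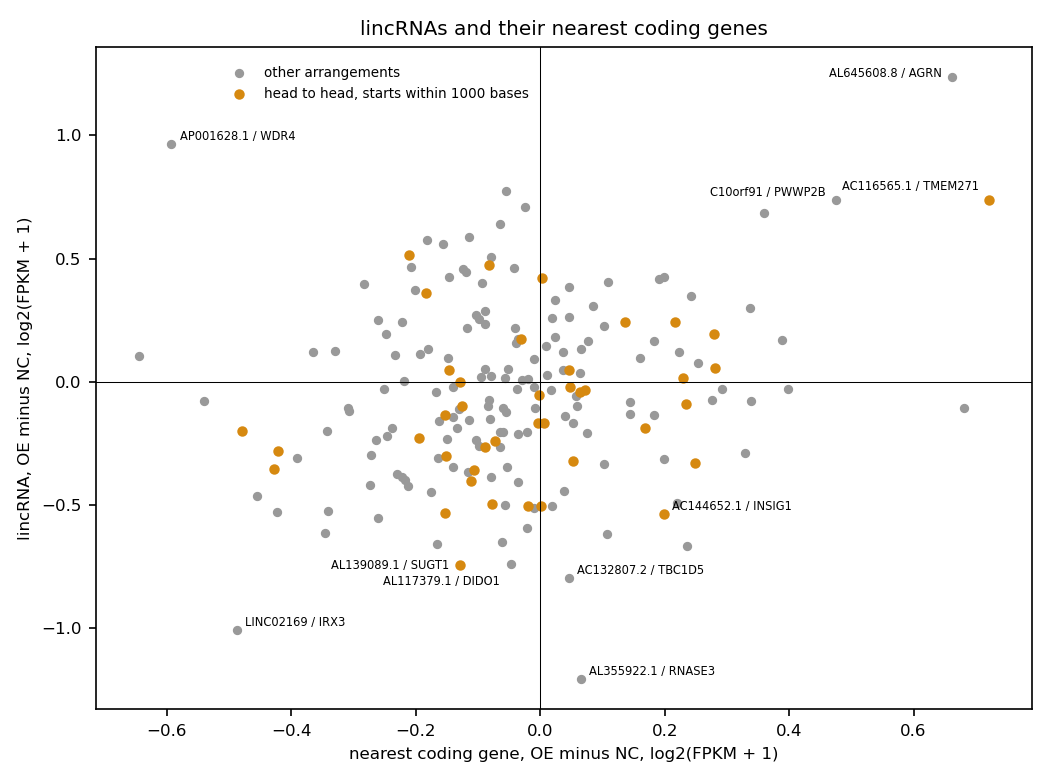
Difference of OE minus NC of each member (vertical axis) against that of its nearest tested coding gene (horizontal axis), both on the log2(FPKM + 1) scale, for 192 pairs; orange points are head-to-head pairs with starts within 1000 bases. AL645608.8 with AGRN and AC116565.1 with TMEM271 lie high on both axes, LINC02169 with IRX3 low on both, and AP001628.1 with WDR4 has a rise of the lincRNA and a fall of the coding gene.

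Beyond head-to-head pairs, AP001628.1 rose while WDR4, a partner of the METTL1 enzyme that methylates transfer RNA, averaged 6.66 ± 1.10 FPKM in OE and 10.5 ± 1.06 FPKM in NC (SD, n = 3 each; limma adjusted p = 0.0175). NEAT1 and FRMD8 both rose, and FRMD8 averaged 8.41 FPKM in OE and 6.45 FPKM in NC. AC096631.1 fell with PTPRC, which encodes the leukocyte phosphatase CD45, at 12.4 FPKM in OE and 15.1 FPKM in NC. The call of AC096631.1 was lost without any library but OE replicate 1 (adjusted p up to 0.0734). AC022306.2 fell with GALK2, and its call held under every alternative run. AL163541.1 fell with IRS2, but lost its call without OE replicate 3, NC replicate 2 or NC replicate 3 (up to 0.0620) and without the filter. AC093297.2 was called lower beside MRPS30, which fell, but its adjusted p of 0.0480 was lost without any 1 library (up to 0.141). That call was also lost with a pseudocount of 0.1, no filter, median ratio scaling, quantile scaling, no trend or the replicate block. AL683813.1 fell while RBMX, its neighbour, rose. The call of AL683813.1 was lost without OE replicate 2, OE replicate 3, NC replicate 1 or NC replicate 2 (up to 0.0738). It was also lost without the filter. Where the counting did not use strand, reads of a member and of an overlapping gene on the other strand cannot be told apart. In 20 members the bounds overlapped a coding gene on the same strand, among them AL117379.1 and AC022306.2. There, strand cannot separate their reads from unspliced RNA of that gene. Whether RNA of a coding gene runs on into the 70 members downstream on its strand was not tested. At least 20% of the exonic bases were shared with another gene in 20 members, and AC005332.6 was the only called one, with 48.4% on the opposite strand of LRRC37A16P. Its call was lost without any 1 library (up to 0.0769), without the filter and after TPM rescaling (up to 0.0854).

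RefSeq promoters could be matched to 77 members, 50 by symbol and 27 by the current symbol of the gene, and in 64 of these the strand agreed and the starts lay within 1000 bases. The BCL6-type motif TTCCTNGAA was found in 2 of the 64 (3.13%) and in 1.61% of all 27305 promoters, on either strand. The members were BISPR and LINC01560. The RefSeq start of LINC01560 lay 855 bases from the deposited one, so the window around its deposited start was not searched. LINC01560 was called lower in OE (limma adjusted p = 0.0406). That call was lost without any library but OE replicate 3, and without the filter, after TPM rescaling, with the replicate block and with voom (adjusted p up to 0.116). None of the 4 matched promoters of members that rose and 1 of the 8 of members that fell held it. The wider palindrome TTCNNNGAA, which also takes in every match of TTCCTNGAA, was in 10.9% of member promoters and 7.88% of all promoters. ACGTG was in 43.8% of member promoters and 21.6% of all, and CCAAT in 48.4% and 35.7%. Over all 77 matched promoters, including those whose starts lay further apart, the median was 22 CG pairs per window, against 14 in all promoters. Their median guanine and cytosine content was 62.0% against 58.3%. A match is a description of these letters and names no bound factor.

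The proteins that process, export and degrade such RNAs were also counted. Of 20 tested genes of the nuclear exosome and its adaptors, 6 fell and none rose. EXOSC7, a subunit of the exosome ring, averaged 20.4 ± 0.560 FPKM in OE and 29.2 ± 2.10 FPKM in NC, and EXOSC10, its nuclear exonuclease, 17.9 ± 0.567 FPKM in OE and 23.3 ± 0.465 FPKM in NC (SD, n = 3 each). ZCCHC8 and the helicase MTREX, which bring the exosome to short-lived nuclear RNAs, fell to 0.835 and 0.839 of the NC mean, and ZCCHC7 and the nuclease DIS3 to 0.830 and 0.818. The median log2 change of the list was -0.08, against -0.02 over all tested genes. Of 18 tested genes of messenger RNA export, 4 fell and none rose. These were PCID2, ALYREF, DDX39A and POLDIP3, and ALYREF, an adaptor for export, averaged 66.7 ± 4.11 FPKM in OE and 90.8 ± 3.07 FPKM in NC.

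Of 15 tested genes of microRNA processing, 3 fell and none rose, namely XPO5, PRKRA and DROSHA, at 0.802, 0.819 and 0.858 of the NC mean. DROSHA cuts microRNA hairpins from host transcripts such as MIR155HG, and XPO5 exports them. Of 13 tested polycomb and ribonucleoprotein partners of lincRNAs, JARID2 and HNRNPL fell, and none rose. JARID2, a cofactor of a polycomb repressive complex, averaged 12.2 ± 0.322 FPKM in OE and 16.2 ± 0.504 FPKM in NC. These counts stand beside 13.9% of coding genes with at least 2 FPKM that were called lower in OE.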

How the data were processed

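RNA was measured in 3 OE and 3 NC libraries of U937 cells. Libraries were made from poly(A) RNA and marked for strand with dUTP, per the labels' protocols. The authors deposited FPKM per gene with a gene length. The submitters' processing notes name cutadapt 1.9 and GRCh38. Not given in the sources used here are the aligner, the counter, whether counting used strand and how reads with several matches were handled.

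FPKM multiplied by length gave whole multiples of 1 read for 100% of values above 0 (tolerance 0.01), so reads per gene were recovered. Genes with at least 0.5 FPKM in at least 3 of 6 libraries were tested (14662) with limma 3.58.1 (R 4.3.3) on log2(FPKM + 1), with the trend option of eBayes and p-values adjusted over all of them by Benjamini-Hochberg. The threshold was an adjusted p of 0.05, two-sided. Log2 changes on this scale understate those of low genes.

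The members, gene lists and motifs were chosen with earlier results of these data known. Named are the 15 largest rises and falls among called members, the 8 most abundant members, members of the lincRNA lists, the 3 genes on each side of the level limit, neighbours of called members, BCL6B, and up to 4 called genes of each protein list. Outside this rule, and named after their values were seen, are the called members past the 15 largest in each direction, MIR210HG, TAF15, MTREX, DIS3 and the markers SPI1, CSF3R, CEBPA, CSF1R, CD68, CD8B and PAX5. So are the markers CD4 and CD3D. A few genes within it are left out of the text. Besides those in the text, 3 erythroid and megakaryocyte markers were tested, of which ITGA2B rose, and 1 fibroblast or epithelial marker, which was not called.

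All 58735 gene IDs matched GENCODE 29, and 58724 had the same bounds and exonic length. Nearest coding genes came from these bounds. Copies were searched with BLAST+ 2.17.0 and promoters taken from RefSeq (GRCh38.p14). The procedure was tested on simulated data. Alternatives were pseudocounts of 0.1 and 0.5, no filter or a mean of at least 1 FPKM, genes of at least 200 bases, median ratio and quantile scaling, TPM, no trend, a replicate block, voom on recovered reads, member limits of 1 and 5 FPKM, each library left out and, added after seeing the data, members without shared exons or copies.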

Additional observations from a re-analysis of the deposited data

How the results depend on the processing

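Of the 55 calls among members, 10 of the 21 rises and 13 of the 34 falls held under every alternative that refitted all genes, and no called value changed its direction. Without the filter on low values, which tests 30382 genes, 1588 genes were called against 2687, with 12 rises and 20 falls among members. Leaving out 1 library gave 1222 to 2272 calls over all genes (1222 without NC replicate 3, 1276 without NC replicate 1, 1333 without OE replicate 2 and 1738 without NC replicate 2), 13 to 21 rises and 20 to 27 falls among members, and a median log2 change of members of -0.0789 (without NC replicate 1) to -0.0446. That median was -0.0524 with all libraries, -0.0879 after TPM rescaling and -0.0683 with voom. With a member limit of 1 FPKM, 442 members had 36 rises and 47 falls and a median of -0.0222, and with a limit of 5 FPKM, 92 members had 9 rises and 13 falls and a median of -0.0296. The 220 members without shared exons or copies had 19 rises and 32 falls and a median of -0.0728. Voom called 57 members, 44 of them also called in the reported fit. Deviations from the group mean correlated at 0.0511, 0.110 and -0.00189 between same-numbered libraries of the groups. Between differently numbered libraries they correlated at -0.0909 to 0.0386. All of these values are small, but 0.110 and 0.0511 were the highest, so they cannot decide whether the numbers pair the libraries. With the number as a replicate block, 2328 genes were called, with 20 rises and 35 falls among members. An average of under 50 reads lay behind 64 members.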
